A study of Homo sapiens with 6 samples.

Results

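The genes described here form the antioxidant and glutathione conjugation programme of the cell: the transcription factor NRF2 (gene NFE2L2) with its regulators, the enzymes that make and use glutathione, the thioredoxin and peroxiredoxin enzymes, the superoxide dismutases, catalase, the glutathione transferases and a group of detoxifying enzymes. They were taken from the gene table by name, with the aldo-keto reductases left out. The list holds 45 genes, which take up 46 of the 58735 rows of the gene table because SOD2 is entered under 2 gene identifiers.

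The cells were of the PC9-BrM3 line, which derives from the human lung adenocarcinoma line PC9 and metastasises to the brain; it was obtained by passing PC9 cells through immunodeficient mice and recovering the brain metastases. BrM3-shAKR1B10 cells carried a lentiviral short hairpin RNA against AKR1B10, an aldo-keto reductase that reduces reactive aldehydes, and BrM3-shNC cells carried a negative control hairpin, with the genotype given as WT. Both groups were kept in routine culture in RPMI1640 with 10% FBS. mRNA was sequenced in 3 libraries per group, so the comparison asks what silencing AKR1B10 changes in the transcriptome. All knockdown libraries came from 1 hairpin sequence, and an effect of AKR1B10 loss and an effect of that hairpin cannot be told apart. The labels do not say that the libraries came from separate cultures, and the p-values then measure only the spread between these samples, which may be technical.

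NRF2 is held in the cytoplasm by KEAP1, which presents it to a ubiquitin ligase for degradation, and oxidants or electrophiles that modify KEAP1 let NRF2 accumulate and enter the nucleus. There it pairs with a small MAF protein on antioxidant response elements, sites for which BACH1 competes as a repressor, and drives genes for glutathione synthesis, thioredoxin reduction and quinone detoxification. Glutathione and thioredoxin supply the electrons with which peroxidases and peroxiredoxins remove peroxides, and glutathione transferases couple glutathione to reactive compounds. In lung adenocarcinoma the pathway is often switched on constitutively through KEAP1 or NFE2L2 mutation, and AKR1B10 itself is a well known NRF2 target.

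AKR1B10 was measured at 108, 107 and 110.2 FPKM in the BrM3-shAKR1B10 libraries and at 799, 775 and 772 FPKM in the BrM3-shNC libraries, so the libraries labelled as knockdown held 13.9% of the control level. FPKM counts fragments per kilobase of gene, scaled to the size of the library. The libraries held 16964504 to 18709028 reads on genes, at which 3 reads on a gene of 1 kb correspond to 0.163 to 0.177 FPKM; this floor covers counting error only. BrM3-shNC replicate 1 stood apart from the other controls: over all genes its counts differed from theirs by a chi-square per gene of 4.88 and 5.42, against 2.45 to 2.70 for the other replicate pairs. Of 8 epithelial and lung adenocarcinoma markers, 6 had a mean of at least 1 FPKM and the list summed to 2987 to 3349 FPKM per library, but NKX2-1 and NAPSA, which define lung adenocarcinoma of alveolar type, averaged 0.155 and 0.483 FPKM. The 4 fibroblast markers summed to 1.15 to 1.33 FPKM in BrM3-shAKR1B10 and 1.96 to 2.02 FPKM in BrM3-shNC, with 3 at 0. The 4 endothelial markers summed to 2.10 to 2.37 FPKM against 1.52 to 1.79 FPKM, with KDR at 0, and the 4 immune markers to 0.965 to 1.03 FPKM against 0.817 to 1.22 FPKM. In bulk RNA, fewer cells of a type and less RNA per cell cannot be told apart.

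The antioxidant response element was looked for in sequence because it is the element that links the members to NRF2. Its core, TGACNNNGC, was searched on both strands from 250 bases before to 50 bases after each RefSeq transcription start (GRCh38.p14). Windows were found for 35 of the 45 genes, and 10 of these (28.6%) held the core, compared with 16.1% of all 27305 genes with a window and 19.6% of the 8901 that were also tested for expression. A gene can have several starts, and the members had more windows per gene, 54 for 35 genes against 35116 for 27305. Among 18 members known to be induced by NRF2, 13 had a window and 5 held the core (38.5%); among the other members it was 5 of 22 (22.7%). The following 29-base stretches show the core in capitals for a glutathione synthesis gene, a peroxidase, a thioredoxin reductase, an epoxide hydrolase, the most abundant transferase and the NRF2 inhibitor itself.
GCLM, chr1:93909446-93909474, plus strand: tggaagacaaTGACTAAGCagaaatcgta
GPX2, chr14:64942849-64942877, plus strand: atccccaggaTGACTTAGCaaaaacaggt
TXNRD1, chr12:104215670-104215698, plus strand: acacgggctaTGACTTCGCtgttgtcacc
EPHX1, chr1:225825266-225825294, plus strand: tgagattggcTGACTTGGCaggactgtgc
GSTP1, chr11:67583736-67583764, plus strand: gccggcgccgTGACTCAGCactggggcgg
KEAP1, chr19:10502784-10502812, plus strand: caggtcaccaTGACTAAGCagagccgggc
In GCLM, GPX2 and KEAP1, which are transcribed from the minus strand, the core in the printed stretch lies on the strand opposite to the gene; KEAP1 has a second match on its own strand. GCLC, GSTM3, GSTM4 and SRXN1 had windows in which these letters do not occur, and HMOX1 had no window. A match is a description of the sequence, not a measured binding site.

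Before any comparison, the members covered a wide range of levels. PRDX1, a cytoplasmic peroxiredoxin, was the most abundant, with a mean of 685 FPKM over the 6 libraries and rank 32 among all genes, followed by the transferase GSTP1 (503 FPKM, rank 43), the quinone reductase NQO1 (379 FPKM, rank 65) and thioredoxin, TXN (321 FPKM, rank 84). At the other end GPX3, an extracellular peroxidase, was at 0.190 to 0.483 FPKM and GSTA4, a transferase for lipid aldehydes, at 0.403 to 0.917 FPKM. The second SOD2 identifier was at 0 to 0.0441 FPKM. These 3 rows fell below the mean of 1 FPKM needed for a test, which left 43 members tested among 13150 genes.

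**Figure D1:**
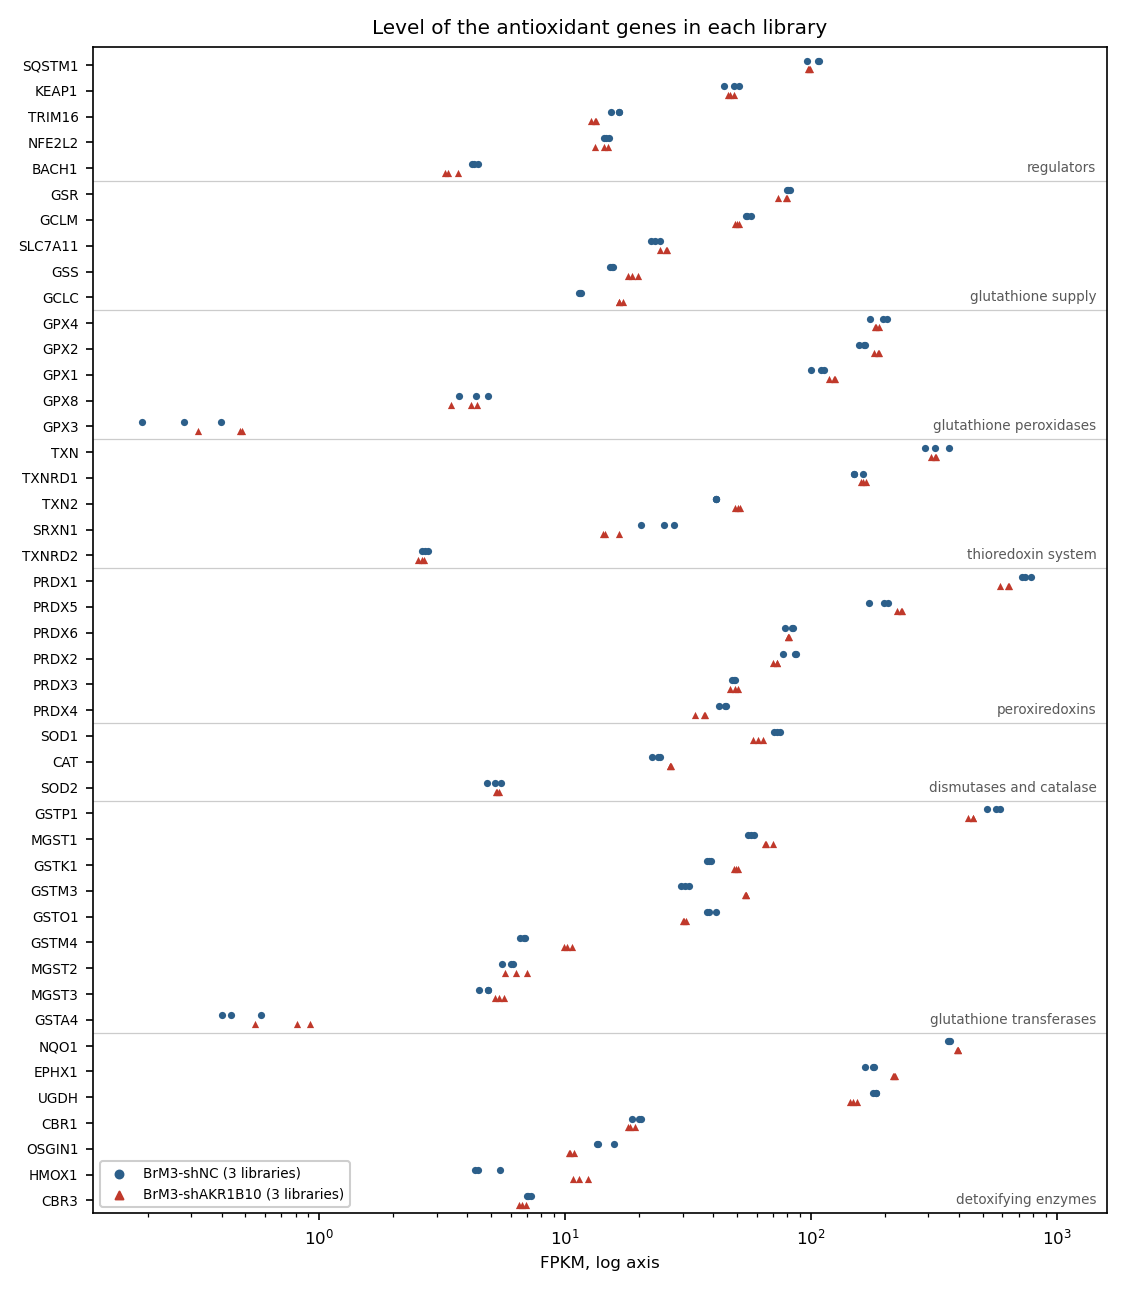
Level of each antioxidant gene in FPKM (log axis) in every library, grouped by role and ordered by mean level within a role; blue circles are the 3 BrM3-shNC libraries and red triangles the 3 BrM3-shAKR1B10 libraries. The points of both groups lie close together for most genes on this scale, from PRDX1 and GSTP1 at the right to GPX3 and GSTA4 at the left, while HMOX1, GSTM3, GSTM4, GCLC and SRXN1 show separated points.

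After AKR1B10 knockdown, 4 members rose (HMOX1, GSTM3, GSTM4 and GCLC) and 1 fell (SRXN1) in limma, where a call needed both an adjusted p under 0.05 and a log2 fold change past 0.5 in either direction, on the log2(FPKM + 0.1) scale. This was 9.30% of the tested members higher, where 5.83% of all tested genes were higher, and 2.33% lower, where 7.45% of all tested genes were lower. At the adjusted p alone, whatever the fold, 15 members (34.9%) were higher and 12 (27.9%) lower, beside 19.4% and 23.1% of all tested genes. The 3 libraries of one group lay entirely above or below those of the other in 29 of the 43 members, compared with 7191 of all 13150 tested genes (54.7%). The median log2 fold change of the members was -0.03, that of all tested genes -0.01, and the members ranged from -0.68 to 1.28.

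**Figure D2:**
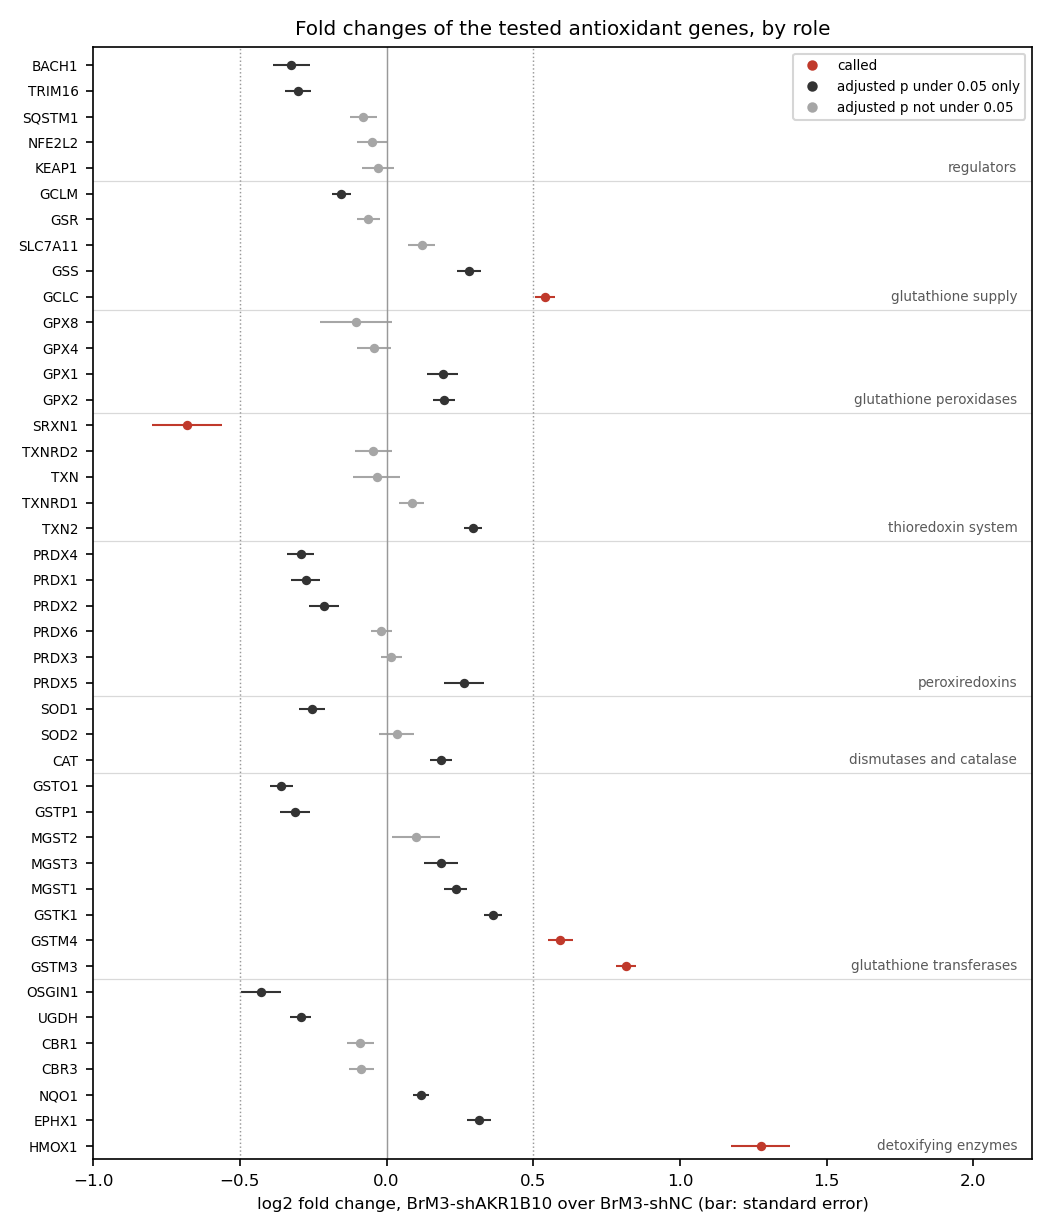
Log2 fold change of the 43 tested antioxidant genes, BrM3-shAKR1B10 over BrM3-shNC, by role; points are limma estimates, bars their standard errors, and dotted lines mark the fold limit of 0.5 in either direction. Only SRXN1 at -0.68 lies beyond the lower line, and GCLC, GSTM4, GSTM3 and HMOX1 lie beyond the upper one, at 0.54 to 1.28.

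Among the regulators, neither NRF2 nor its inhibitor KEAP1 passed the test at the mRNA level, and the repressor BACH1 was lower. NFE2L2 was measured at 15.0, 13.2 and 14.4 FPKM in BrM3-shAKR1B10 and at 14.3, 15.1 and 14.7 FPKM in BrM3-shNC (log2 fold change -0.05, SE 0.0531, limma adjusted p = 0.504). KEAP1 was measured at 46.7, 45.9 and 48.5 FPKM against 44.4, 51.0 and 48.7 FPKM (log2 fold change -0.03, SE 0.0556, limma adjusted p = 0.711). NFE2L2 shares 17.6% of its exon bases with other genes on its strand. In both genes the groups overlapped, and the sign of these small differences turned when the libraries were quantile normalised. BACH1, the repressor that competes with NRF2, was measured at 3.34, 3.24 and 3.65 FPKM against 4.42, 4.19 and 4.27 FPKM. All knockdown libraries lay below all controls, with a log2 fold change of -0.32 (SE 0.0631) that passed the limma adjusted p (0.00695) but not the fold limit. TRIM16, an E3 ligase reported to stabilise NRF2, differed by -0.30 in the same way (12.7 to 13.3 against 15.4 to 16.5 FPKM), with 6.32% as many reads on an overlapping gene of the same strand, AC005324.3. SQSTM1, the autophagy receptor p62 that sequesters KEAP1, was at 97.5 to 99.1 FPKM against 96.7 to 108 FPKM, and did not pass.

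Of the 5 genes for glutathione supply, 1 was called higher and none lower, where 5.83% of all tested genes were called higher and 7.45% lower. At the adjusted p alone 2 were higher and 1 lower, beside 19.4% and 23.1% of all tested genes. The called gene was GCLC, the catalytic subunit of glutamate-cysteine ligase and the rate-limiting step of glutathione synthesis. It was measured at 16.5, 16.6 and 17.2 FPKM in BrM3-shAKR1B10 and at 11.6, 11.4 and 11.5 FPKM in BrM3-shNC. The groups did not overlap, at a log2 fold change of 0.54 (SE 0.0341, limma adjusted p = 7.2e-05). GCLM, the modifier subunit of the same enzyme, was measured at 50.7, 49.2 and 50.0 FPKM against 57.2, 54.6 and 55.1 FPKM. Here all knockdown libraries were the lower ones, by a log2 fold change of -0.15 (SE 0.0316) that passed the limma adjusted p (0.00858) and not the fold limit. The ratio of GCLC to GCLM mRNA was thus 0.336 ± 0.00933 in BrM3-shAKR1B10 and 0.207 ± 0.00325 in BrM3-shNC (SD, n = 3 each, exact permutation test, two-sided p = 0.1, the smallest that 3 against 3 libraries can give). Since GCLC was higher and GCLM lower in every knockdown library, the outcome of this test was fixed by the values of the single genes. GCLC shares 6.12% of its exon bases with a non-coding gene on its strand, AL033397.1, whose own level was 10.7 to 11.8 FPKM against 13.4 to 14.8 FPKM.

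The other members of the supply group were not called. SLC7A11, the cystine importer that feeds the synthesis, was measured at 24.3, 25.8 and 26.1 FPKM against 24.4, 23.2 and 22.4 FPKM, with groups that overlapped (log2 fold change 0.12, SE 0.0458, limma adjusted p = 0.077). GSS, which completes the tripeptide, was higher in every knockdown library (18.0 to 19.7 against 15.2 to 15.6 FPKM) by 0.28 on the log2 scale and passed the adjusted p only. GSR, which regenerates reduced glutathione, was at 73.5 to 79.7 FPKM against 79.9 to 82.1 FPKM and did not pass.

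None of the 4 tested glutathione peroxidases was called, where 7.45% of all tested genes were called lower and 5.83% higher. GPX4, which reduces lipid hydroperoxides in membranes and holds back ferroptosis, was measured at 189, 183 and 184 FPKM in BrM3-shAKR1B10 and at 174, 196 and 203 FPKM in BrM3-shNC (log2 fold change -0.04, SE 0.0582, limma adjusted p = 0.603). The groups overlapped, and the controls spread more than the knockdown libraries. GPX1, the general cytosolic form, and GPX2, the epithelial form that NRF2 induces, were higher in every knockdown library by 0.19 and 0.20 on the log2 scale and passed the adjusted p only. GPX1 was at 118 to 126 FPKM against 99.8 to 112 FPKM, and GPX2 at 179.9 to 189 FPKM against 156 to 166 FPKM. GPX8, of the endoplasmic reticulum, was at 3.44 to 4.36 FPKM against 3.71 to 4.85 FPKM. GPX3 was at 0.321 to 0.483 FPKM against 0.190 to 0.398 FPKM, overlapped and was not tested.

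In the thioredoxin system SRXN1, the sulfiredoxin that repairs over-oxidised peroxiredoxins, fell. It was measured at 14.5, 14.2 and 16.5 FPKM in BrM3-shAKR1B10 and at 20.3, 25.2 and 27.7 FPKM in BrM3-shNC. Every knockdown library lay below every control, among which replicate 1 was the lowest, and the log2 fold change was -0.68 (SE 0.119, limma adjusted p = 0.00457). Without BrM3-shNC replicate 1 it was -0.81, and without BrM3-shNC replicate 3, the highest library, -0.58. SRXN1 shares 85.0% of its exon bases with AL121758.1, a gene on the same strand that was counted at 9.67 reads on average, where SRXN1 had 949; how reads in shared bases were assigned was not stated.

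TXN, the cytosolic thioredoxin, was measured at 308, 320.0 and 321 FPKM against 365, 320.0 and 291 FPKM (log2 fold change -0.03, SE 0.0789, limma adjusted p = 0.757). The control libraries spread on both sides of the knockdown libraries. TXNRD1, the NRF2-induced reductase that recharges it, was measured at 163, 167 and 159 FPKM against 162, 150.1 and 149 FPKM (log2 fold change 0.09, SE 0.0428, limma adjusted p = 0.154), and the groups overlapped. The mitochondrial thioredoxin TXN2 was higher in every knockdown library (49.0 to 51.4 against 40.9 to 41.0 FPKM), by 0.29 on the log2 scale, and passed the adjusted p only, while its reductase TXNRD2 was at 2.53 to 2.66 FPKM against 2.61 to 2.76 FPKM.

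The peroxiredoxins, the thiol peroxidases that thioredoxin recharges, held 3 genes that were lower, 1 that was higher and 2 that did not pass the adjusted p, all within the fold limit. That was 50.0% and 16.7% of the 6 genes, beside 23.1% lower and 19.4% higher among all tested genes. PRDX1 was measured at 587, 633 and 639 FPKM in BrM3-shAKR1B10 and at 786, 723 and 739.7 FPKM in BrM3-shNC. The groups did not overlap, with a log2 fold change of -0.28 (SE 0.0499) that passed the limma adjusted p (0.00518). PRDX2, also cytoplasmic, and PRDX4, of the endoplasmic reticulum, differed by -0.21 and -0.29, and PRDX5, a form found in mitochondria and peroxisomes, by 0.26. PRDX2 was at 70.1 to 72.7 FPKM against 77.1 to 86.7 FPKM and PRDX4 at 33.8 to 36.9 FPKM against 42.3 to 44.95 FPKM. PRDX5 was at 224 to 234 FPKM against 172 to 206 FPKM. PRDX3, the mitochondrial form, and PRDX6, which uses glutathione, stood at 0.02 (47.0 to 50.5 against 47.7 to 48.8 FPKM) and -0.02 (80.4 to 81.3 against 78.1 to 84.1 FPKM) and overlapped. Summed over the 6 genes, peroxiredoxin mRNA in BrM3-shAKR1B10 was 90.6% of the control level (1087 ± 25.3 against 1199.5 ± 8.77 FPKM, SD, n = 3), and PRDX1 made up 57.0% ± 1.33 of it against 62.5% ± 2.26 (exact permutation test, two-sided p = 0.1). Of the exon bases of PRDX1, 24.9% are also covered by a gene on the opposite strand, MMACHC, which had 0.828% as many reads.

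Of the enzymes that remove superoxide and hydrogen peroxide, SOD1 of the cytosol was lower in every knockdown library (58.2 to 64.0 against 70.8 to 74.7 FPKM; log2 fold change -0.25) and catalase, CAT, higher in every one (26.6 to 26.9 against 22.5 to 24.2 FPKM; 0.19); both passed the adjusted p only. SOD2 of the mitochondria was at 5.21 to 5.36 FPKM against 4.80 to 5.48 FPKM, and overlapped.

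The glutathione transferases divided by gene. GSTM3, of the mu class of cytosolic transferases, was measured at 54.1, 54.2 and 54.1 FPKM in BrM3-shAKR1B10 and at 31.9, 30.6 and 29.7 FPKM in BrM3-shNC. The knockdown libraries were nearly identical and far above the controls, at a log2 fold change of 0.82 (SE 0.0349, limma adjusted p = 2.08e-05). GSTM4, of the same class, was measured at 9.87, 10.1 and 10.6 FPKM against 6.77, 6.57 and 6.85 FPKM. Again the groups did not overlap (log2 fold change 0.59, SE 0.0436, limma adjusted p = 1.27e-04). GSTP1, the pi-class enzyme and by far the most abundant transferase, went the other way: it was measured at 456, 435 and 454 FPKM against 519, 587 and 565 FPKM. All knockdown libraries lay below all controls, with a log2 fold change of -0.31 (SE 0.0522) that passed the limma adjusted p (0.00375) and not the fold limit. GSTO1, of the omega class, differed by -0.36, while GSTK1, the kappa-class form of mitochondria and peroxisomes, and the microsomal MGST1 and MGST3 were higher by 0.36, 0.24 and 0.19; these passed the adjusted p only. GSTO1 was at 30.2 to 30.9 FPKM against 37.8 to 41.2 FPKM and GSTK1 at 48.4 to 50.4 FPKM against 37.7 to 39.0 FPKM. MGST1 was at 65.2 to 70.0 FPKM against 55.2 to 58.4 FPKM and MGST3 at 5.18 to 5.62 FPKM against 4.47 to 4.86 FPKM. GSTO1, GSTK1, MGST1 and MGST3 did not overlap between the groups, and neither did 54.7% of all tested genes. Of the 8 tested transferases, 25.0% were called higher and 0% lower, beside 5.83% and 7.45% of all tested genes. At the adjusted p alone 62.5% were higher and 25.0% lower, beside 19.4% and 23.1%. MGST2 was at 5.71 to 6.99 FPKM against 5.54 to 6.11 FPKM and did not pass, and GSTA4, at 0.544 to 0.917 FPKM against 0.403 to 0.576 FPKM, was not tested. Among these 9 transferases, which leave out GSTM1 and GSTM2, GSTP1 made up 66.7% ± 0.672 of the summed mRNA in BrM3-shAKR1B10 and 75.2% ± 1.20 in BrM3-shNC (SD, n = 3; exact permutation test, two-sided p = 0.1).

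The mu-class genes lie side by side on chromosome 1 (GRCh38, chr1:109656081-109775428), and GSTM1 and GSTM2, which share that cluster with GSTM3 and GSTM4, rose as well. GSTM5, the remaining gene of the cluster, had 0 to 4 reads per library and was not tested. GSTM1 was measured at 74.3, 82.6 and 83.7 FPKM in BrM3-shAKR1B10 and at 46.1, 42.8 and 41.0 FPKM in BrM3-shNC (log2 fold change 0.89, SE 0.0627, limma adjusted p = 1.1e-04). GSTM2 was measured at 2.05, 1.77 and 2.07 FPKM against 0.956, 1.07 and 1.18 FPKM (log2 fold change 0.82, SE 0.132, limma adjusted p = 0.00328). These genes resemble one another, and 23.5% of the 150-base stretches of GSTM1 transcripts also occur in GSTM2 transcripts, so their separate values are uncertain; for GSTM4 it was 3.35%, and for GSTM3 no such stretch was found in another gene. Of the 8 other tested genes within 250 kb of the cluster, none was called, where 7.45% of all tested genes were called lower and 5.83% higher. At the adjusted p alone 4 of them passed in limma, beside 19.4% of all tested genes higher and 23.1% lower: AMIGO1 (0.43), CSF1 (-0.38), CYB561D1 (-0.17) and GNAI3 (-0.15).

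HMOX1, among the detoxifying enzymes, rose more than any other tested member. It encodes heme oxygenase 1, which breaks down heme and is a classic target of both NRF2 and the repressor BACH1. It was measured at 12.4, 10.7 and 11.4 FPKM in BrM3-shAKR1B10 and at 4.28, 4.40 and 5.42 FPKM in BrM3-shNC. Every knockdown library was well above every control, with 244% of the control level and a log2 fold change of 1.28 (SE 0.101, limma adjusted p = 1.66e-04). The ratio of HMOX1 to BACH1 mRNA was 3.37 ± 0.300 against 1.10 ± 0.156 (SD, n = 3, exact permutation test, two-sided p = 0.1). HMOX1 was higher and BACH1 lower in every knockdown library than in every control. The ratio therefore had to separate, and its test adds nothing to the values of the single genes.

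NQO1, the quinone reductase often read as a reporter of NRF2, was measured at 397, 395 and 393 FPKM against 366, 364 and 362 FPKM. The groups were narrow and did not overlap, at a log2 fold change of 0.12 (SE 0.0269) that passed the limma adjusted p (0.0131) and not the fold limit. EPHX1, the microsomal epoxide hydrolase, was higher by 0.31 (215 to 219 against 166 to 181 FPKM). UGDH, which makes the sugar donor for glucuronidation, and OSGIN1, a stress-induced growth inhibitor, were lower, with log2 fold changes of -0.29 (144 to 154 against 179 to 184 FPKM) and -0.43 (10.4 to 10.9 against 13.4 to 15.8 FPKM); OSGIN1 shares 13.9% of its exon bases with another gene on its strand. EPHX1, UGDH and OSGIN1 passed the adjusted p only. The carbonyl reductases CBR1 (18.0 to 19.2 against 18.7 to 20.4 FPKM) and CBR3 (6.46 to 6.92 against 6.98 to 7.23 FPKM) both differed by -0.09 and did not pass.

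**Figure D3:**
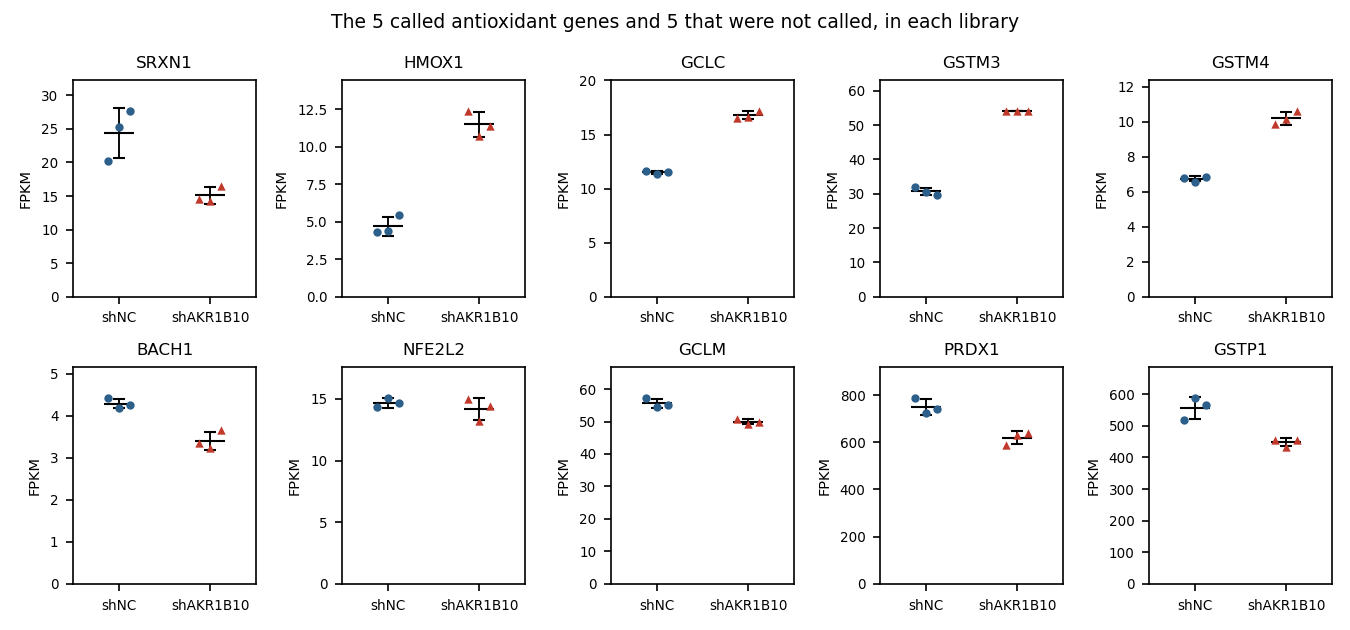
FPKM in each library for the 5 called antioxidant genes (SRXN1, HMOX1, GCLC, GSTM3, GSTM4) and for BACH1, NFE2L2, GCLM, PRDX1 and GSTP1; points are libraries, horizontal bars the mean and whiskers the SD of 3 libraries, and each axis starts at 0. The groups are separated in all panels but NFE2L2, where they overlap at 13.2 to 15.1 FPKM.

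The 18 members taken as known to be induced by NRF2, a list that leaves out the glutathione transferases, did not move in 1 direction. They were NQO1, HMOX1, GCLC, GCLM, SLC7A11, GSR, GPX2, TXN, TXNRD1, SRXN1, PRDX1, EPHX1, UGDH, OSGIN1, CBR1, CBR3, SQSTM1 and TRIM16. SRXN1 fell (5.56% of the 18) and HMOX1 and GCLC rose (11.1%), where 7.45% of all tested genes were called lower and 5.83% higher. At the adjusted p alone 6 were lower (33.3%) and 5 higher (27.8%), beside 23.1% and 19.4% of all tested genes. The median log2 fold change of the 18 was -0.07. In BrM3-shAKR1B10 the mRNA of these 18 summed to 2389 ± 26.7 FPKM, 96.6% of the 2474 ± 60.1 FPKM of the controls (SD, n = 3). PRDX1, the most abundant of them, weighed most in this sum, at a mean of 619 against 750 FPKM. Over all members the sum was 97.0% of the control level. By role, the sums ran from 90.6% for the peroxiredoxins, 90.8% for the transferases and 91.7% for the dismutases and catalase to 105% for the detoxifying enzymes and 107% for the glutathione peroxidases. GSTP1 (448 against 557 FPKM) weighed most in the transferase sum, which leaves out GSTM1 (80.2 against 43.3 FPKM) and GSTM2. Of the 8 tested transferases, 6 had a log2 fold change above 0 and 2 below.

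Related genes that were not members were read from 3 lists. Of 23 tested NRF2 targets of other kinds, 3 rose (13.0%) and 1 fell (4.35%), where 5.83% and 7.45% of all tested genes did. At the adjusted p alone 10 were higher (43.5%) and 3 lower (13.0%), beside 19.4% and 23.1%. The risen genes were GLRX, a glutaredoxin (log2 fold change 0.88), ALDH3A1, an aldehyde dehydrogenase (0.78), and ABCC3, an exporter of conjugates (0.51), and the fallen one was NR0B1, an orphan nuclear receptor (-0.76). ALDH3A1 reached 161, 154 and 159.6 FPKM against 86.3, 95.9 and 93.1 FPKM. The ferritin genes FTL and FTH1 and the pentose phosphate enzyme TKT differed by -0.06, -0.01 and 0.02 and did not pass.

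Of 30 tested glutathione and thioredoxin genes outside the set, 7 rose (23.3%) and 2 fell (6.67%), beside 5.83% and 7.45% of all tested genes. TXNIP, the inhibitor that binds thioredoxin, was measured at 88.2, 89.3 and 89.0 FPKM against 46.2, 47.2 and 46.2 FPKM, a log2 fold change of 0.93 (SE 0.0267, limma adjusted p = 8.72e-06). TXN itself did not pass the test, and the ratio of TXN to TXNIP mRNA was 3.56 ± 0.0621 in BrM3-shAKR1B10 and 6.99 ± 0.810 in BrM3-shNC (SD, n = 3; exact permutation test, two-sided p = 0.1). CHAC1, which degrades glutathione, rose by 1.20, from 0.488 to 0.927 FPKM in the controls to 1.72 to 1.95 FPKM. Its control mean of 0.765 FPKM lay below the filter of 1 FPKM, which CHAC1 passed only through its knockdown values. It had 17 to 35 reads per control library. The related CHAC2 fell by 0.51 on the log2 scale. The CHAC2 value lay within the fold limit without BrM3-shAKR1B10 replicate 1 (-0.45), without BrM3-shNC replicate 2 (-0.42), with TPM (-0.49) and with a pseudocount of 1 (-0.38). OPLAH, which turns oxoproline into glutamate, rose by 0.61, the extracellular dismutase SOD3 by 0.84 and SESN1, a sestrin, by 0.60, beside GSTM1 and GSTM2 given above. NNT, the mitochondrial transhydrogenase that supplies NADPH, fell by 0.64 on the log2 scale (1.88 to 2.08 against 2.96 to 3.28 FPKM). With a pseudocount of 1, NNT and SESN1 were at -0.47 and 0.49 and no longer passed the fold limit.

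Of 13 tested NRF2 regulators outside the set, NFE2L3, a relative of NRF2, rose (21.7, 20.9 and 21.1 against 14.5, 14.9 and 14.6 FPKM; log2 fold change 0.53, SE 0.0332, limma adjusted p = 6.93e-05). BTRC, a subunit of a ligase that marks NRF2 for degradation independently of KEAP1, fell (3.19, 3.68 and 3.46 against 5.46, 5.20 and 4.96 FPKM; log2 fold change -0.58, SE 0.0693, limma adjusted p = 8.98e-04), though with a pseudocount of 1 it was at -0.48, within the fold limit. These calls were 7.69% of the list in each direction, beside 5.83% of all tested genes higher and 7.45% lower. The small MAF genes MAFF, MAFG and MAFK, whose products pair with NRF2 and with BACH1, differed by -0.39, -0.33 and -0.40 and passed the adjusted p only.

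**Figure D4:**
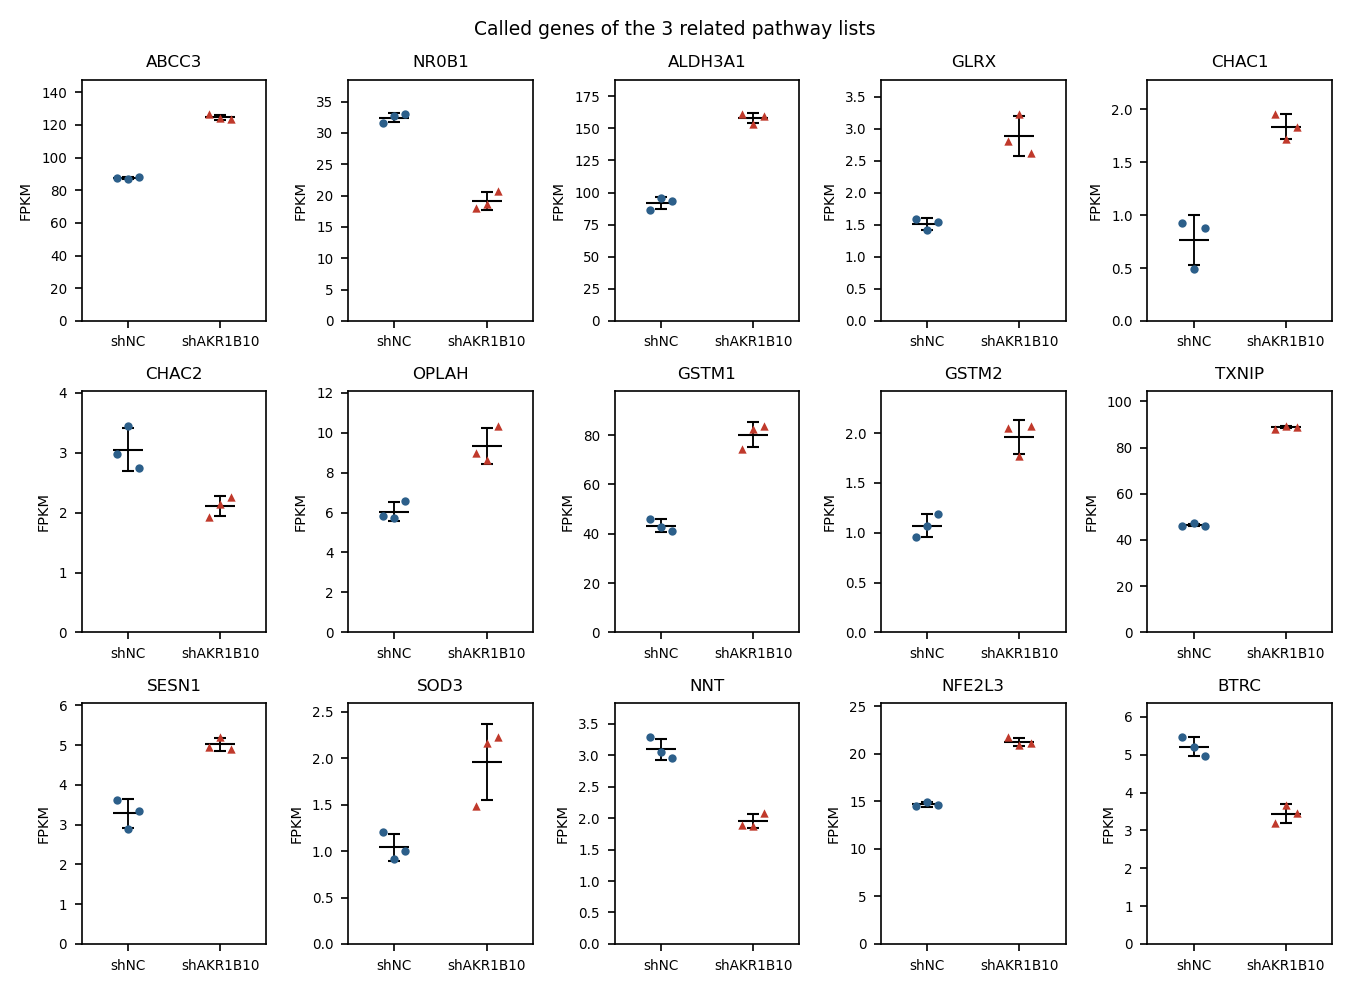
FPKM in each library for the 15 called genes of the 3 related lists; points are libraries, horizontal bars the mean and whiskers the SD of 3 libraries, and each axis starts at 0. NR0B1, CHAC2, NNT and BTRC are lower in the shAKR1B10 libraries and the other 11 genes are higher, TXNIP from 46.2 to 47.2 FPKM in the controls to 88.2 to 89.3 FPKM.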

How the data were processed

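PC9-BrM3 mRNA was purified with poly-T beads, primed with random hexamers and sequenced as 150 bp paired ends in 3 BrM3-shAKR1B10 and 3 BrM3-shNC libraries. The authors removed reads with adapters, N bases or low quality, then used HISAT2 2.0.5 for alignment, featureCounts 1.5.0-p3 for counts per gene, and deposited FPKM per gene and library, without pooling. The genome build, the strand setting and the treatment of reads in shared bases are not given in the sources used here, and without strand, reads of overlapping antisense genes cannot be told apart. All 58735 gene positions and exon lengths in the file matched GENCODE 29 on GRCh38.

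Multiplying FPKM by gene length and dividing by what 1 read is worth in that library returned whole reads (within 0.02 of a read) for 100% of the values under 2000 reads, and the library size behind the deposited FPKM proved to be scaled by median of ratios. The main test was limma 3.58.1 (R 4.3.3), with a mean-variance trend, on log2(FPKM + 0.1) for the 13150 genes with a mean of at least 1 FPKM, with Benjamini-Hochberg adjustment over all of them. A call needed both an adjusted p under 0.05 and a log2 fold change past 0.5 in either direction, the thresholds used in the study. Ratios and shares were compared by the exact two-sided permutation test (SciPy 1.17.1). Sequences came from the RefSeq promoter table (GRCh38.p14), where 35 of 45 symbols matched.

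All 45 genes are accounted for: values in every library are given for called genes and for NFE2L2, KEAP1, BACH1, NQO1, HMOX1, GCLC, GCLM, SLC7A11, TXN, TXNRD1, SRXN1, GPX4, PRDX1 and GSTP1, other genes are given by role and range, and called genes of the 3 related lists are named. Members and lists were chosen with earlier results of these data known. The look at the neighbours of the mu-class cluster and at shared exon bases, and the ratios between genes, were added after values were seen. Alternatives covered pseudocounts of 1 and 0.01, no filter or a mean of at least 5 FPKM, TPM, median-of-ratios scaling (which nearly repeats the scaling already in the deposited values) and quantile scaling, no variance trend, limma voom on the recovered reads, a replicate block, a fit on protein-coding genes, a fold limit of 1 on the log2 scale and each library left out.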

Additional observations from a re-analysis of the deposited data

How the results depend on the processing

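SRXN1 remained the 1 gene called lower, and HMOX1, GSTM3, GSTM4 and GCLC the 4 called higher, under every alternative except the stricter fold limit, median-of-ratios scaling being nearly a repeat of the deposited scaling: at an absolute log2 fold change above 1, 0 members were lower and 1, HMOX1, was higher. With a replicate block, 1 member was lower and 4 were higher; the numbers did not pair the libraries, since the deviations of same-numbered libraries correlated at -0.0155, 0.00388 and 0.00383. The reads recovered from FPKM gave 1038 genes lower and 789 higher in limma voom, where FPKM gave 980 and 766. Those counts were 708 and 497 with a pseudocount of 1, 532 and 290 at a mean of at least 5 FPKM, 205 and 168 above a log2 fold change of 1, and 873 and 902 with TPM, where more genes were higher than lower. The differences of 7 genes that did not pass the test changed sign under at least 1 alternative, and the cause was not tested. TXN was 0.0029 with TPM and 0.056 with quantile scaling, and -0.11 to 0.051 with 1 library left out. GPX4 was 0.034 with quantile scaling and -0.11 to 0.0037 with 1 library left out. KEAP1 was 0.0085 with TPM, 0.015 with quantile scaling and -0.084 to 0.016 with 1 library left out. NFE2L2 was 0.0072 with quantile scaling and -0.086 to 0.0021 with 1 library left out. PRDX6, PRDX3 and SOD2 ranged over all alternatives from -0.052 to 0.045, -0.0079 to 0.053 and -0.015 to 0.078.

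At the adjusted p alone, 9 to 14 members were lower and 11 to 17 higher over the alternatives. The pass was lost under at least 1 of them by 7 members with small changes: NQO1 (0.0811 without a filter, 0.0531 with the replicate block, 0.0517 without BrM3-shAKR1B10 replicate 2), PRDX1 and GSTP1 (0.0854 and 0.0561 with quantile scaling), and PRDX2, PRDX5, GPX1 and MGST3, whose limma adjusted p reached 0.0626, 0.0687, 0.0833 and 0.113. SLC7A11, TXNRD1, SQSTM1 and GPX4 passed under some, all 4 of them without BrM3-shNC replicate 1, the control that stood apart. GPX3, GSTA4 and the second SOD2 entry were left out by the filter on mean FPKM. GPX3 had 11 to 27 reads per library and GSTA4 16 to 36, so their values carry a large counting error. The overlap of SRXN1, TRIM16, NFE2L2, OSGIN1, GSTM1, GSTM2 and GSTM4 with other genes limits how far their levels belong to 1 gene. Genes on the opposite strand cover 42.2% of the exon bases of CBR3, 22.0% of those of SQSTM1 and 18.9% of those of CBR1. Reads of these opposite genes cannot be told apart, because the strand setting is not given in the sources used.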
